A study of Mus musculus with 2 samples.

Results

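The 10 immediate early genes *Fos*, *Fosb*, *Jun*, *Junb*, *Egr1*, *Egr2*, *Egr3*, *Nr4a1*, *Npas4* and *Arc* were followed in the Prrc2a RIP-seq peaks of mouse brain. They were chosen by name, as genes that neurons switch on within minutes of activity, out of 21938 protein-coding genes on the assembled chromosomes. Earlier results of these data were known when the list was made. A peak was given to a gene when at least 1 bp of it lay in an exon of any of its transcripts in GENCODE release M21, on the genome build GRCm38 (mm10). This rule gave them 31 peaks out of 18129 in replicate 1 and 25 peaks out of 18671 in replicate 2.

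RIP-seq sequences the RNA that comes down with an antibody, here against Prrc2a, a large proline-rich protein of the cytoplasm that binds RNA. Both libraries were made from whole brain of wild-type C57BL/6J male mice at 4 weeks of age, with no treatment, and form 1 condition with 2 replicates. The study calls the replicates biological, and the protocol names 3 brains without saying how they were divided between them. Each peak came with its fold enrichment, the ratio of the pulled-down signal over a control signal, which is neither a read count nor an expression level. The lists hold no counts and no strand, so the depth is unknown, an RNA without a peak cannot be told from one with too few reads, and the labelled tissue could not be checked against marker levels.

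Immediate early genes need no new protein synthesis to be transcribed, and most of their mRNAs are short-lived because sequences in the 3′ UTR recruit decay factors. *Fos*, *Fosb*, *Jun* and *Junb* encode subunits of the dimeric transcription factor AP-1, the Egr genes encode zinc finger factors, *Nr4a1* an orphan nuclear receptor and *Npas4* a bHLH-PAS factor that is induced by calcium entry in neurons. *Arc* is the effector among them: its mRNA travels into dendrites, where it is translated near active synapses, and its protein takes part in removing AMPA receptors from the membrane. *Egr2* has a further role outside neurons, as the factor that directs myelination by Schwann cells.

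In *Egr2* and in *Fosb*, the genes with the highest means of the group, the most enriched shared peak lay over the first coding exon. The coding bases that both replicates covered there are printed first. They are followed by a longer stretch of *Egr2*, from the middle of the longest coding interval inside peaks of both replicates. By the mean of both replicates, the pair of *Egr2* peaks that holds this stretch was also above the first *Fosb* peak (8.74 against 8.62). They were read from the reference genome on the strand of the gene, 5′ to 3′, with GGAC in capitals, the core of the consensus sequence at which adenosine is methylated to m6A. Codons are counted from the start codon as 1.
Egr2 first coding stretch, chr10:67538221-67538389 (+ strand), codons 1 to 57: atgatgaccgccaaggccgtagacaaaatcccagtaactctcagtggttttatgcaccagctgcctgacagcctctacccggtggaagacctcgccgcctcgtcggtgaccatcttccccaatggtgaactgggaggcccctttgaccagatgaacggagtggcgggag
Fosb first coding stretch, chr7:19309306-19309431 (- strand), codons 1 to 42: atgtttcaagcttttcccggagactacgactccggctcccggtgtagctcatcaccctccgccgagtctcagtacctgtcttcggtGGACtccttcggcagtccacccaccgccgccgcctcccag
Egr2 second coding stretch, chr10:67540058-67540357 (+ strand), codons 161 to 261: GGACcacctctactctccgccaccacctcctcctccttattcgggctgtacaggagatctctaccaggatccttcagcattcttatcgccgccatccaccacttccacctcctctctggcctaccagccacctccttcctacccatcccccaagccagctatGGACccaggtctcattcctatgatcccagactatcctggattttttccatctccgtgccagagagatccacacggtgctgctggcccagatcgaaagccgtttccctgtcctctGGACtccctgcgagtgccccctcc
The first coding stretch of *Egr2* held 0 copies of GGAC in 169 bases, that of *Fosb* held 1 in 126 bases and the second stretch of *Egr2* held 3 in 300 bases. The *Fosb* copy and 1 of the 3 copies in *Egr2* read GGACT. The printed bases are only a part of the peaks, and both first peaks also held 5′ UTR. All exonic bases of the first *Fosb* peak held 5 copies of GGAC in replicate 1 and 4 in replicate 2, of which 4 and 3 read GGACT. The first *Egr2* peak held 1 copy of GGAC in each replicate.

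For comparison, the middle of the longest coding interval that both replicates covered is printed for 7 further genes, 101 bases where the interval was long enough and the whole interval of 73 and 61 bases in a single exon of *Egr3* and *Nr4a1*. These stretches came from peaks that were 1.48-fold to 2.91-fold enriched.
Fos, chr12:85476185-85476285 (+ strand), codons 290 to 324: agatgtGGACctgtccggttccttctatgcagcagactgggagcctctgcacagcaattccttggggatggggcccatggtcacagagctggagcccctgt
Jun, chr4:95050822-95050922 (- strand), codons 117 to 150: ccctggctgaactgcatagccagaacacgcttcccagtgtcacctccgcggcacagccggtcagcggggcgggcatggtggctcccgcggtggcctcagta
Junb, chr8:84977486-84977586 (- strand), codons 282 to 315: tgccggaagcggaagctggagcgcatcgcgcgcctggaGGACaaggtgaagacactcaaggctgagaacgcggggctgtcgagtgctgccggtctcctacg
Npas4, chr19:4988175-4988275 (- strand), codons 168 to 202: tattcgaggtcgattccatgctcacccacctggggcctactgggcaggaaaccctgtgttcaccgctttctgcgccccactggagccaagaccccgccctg
Arc, chr15:74671931-74672031 (- strand), codons 114 to 148: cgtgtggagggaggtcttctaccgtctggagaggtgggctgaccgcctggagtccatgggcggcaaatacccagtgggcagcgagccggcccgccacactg
Egr3, chr14:70079833-70079905 (+ strand), codons 364 to 388: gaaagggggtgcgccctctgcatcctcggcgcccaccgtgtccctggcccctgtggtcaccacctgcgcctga
Nr4a1, chr15:101273015-101273075 (+ strand), codons 457 to 477: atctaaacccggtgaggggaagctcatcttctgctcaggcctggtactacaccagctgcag
The stretches of *Fos* and *Junb* held 1 GGAC each, and those of *Jun*, *Npas4*, *Arc*, *Egr3* and *Nr4a1* held 0. *Egr1* had no coding base covered in both replicates and is not shown.

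All 10 genes carried a peak in each replicate, and in all 10 at least 1 replicate 1 peak overlapped a replicate 2 peak by 1 bp or more, which is called a shared peak here. Among all protein-coding genes, 12.0% (2629 of 21938) had a shared exonic peak, 16.5% had an exonic peak in replicate 1 and 21.1% in replicate 2. Of the 31 replicate 1 peaks, 21 (67.7%) were shared, against 61.3% of the 11934 replicate 1 peaks in protein-coding exons. Of the 25 replicate 2 peaks, 25 (100%) were shared, against 47.9% of 16084. The 10 peaks found in replicate 1 alone lay in *Egr1* (3), *Egr3* (3), *Fos* (2) and *Nr4a1* (2), with a median fold enrichment of 1.75. These 4 genes thus had fewer peaks in replicate 2, while *Fosb*, *Jun*, *Junb*, *Egr2*, *Npas4* and *Arc* had no peak that was found in a single replicate. The 10 genes were not long: their exons summed to a median of 3453.5 bases (2301 to 6243), close to the 3499 bases of all protein-coding genes and below the 6865 bases of all genes with a shared peak.

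**Figure D1:**
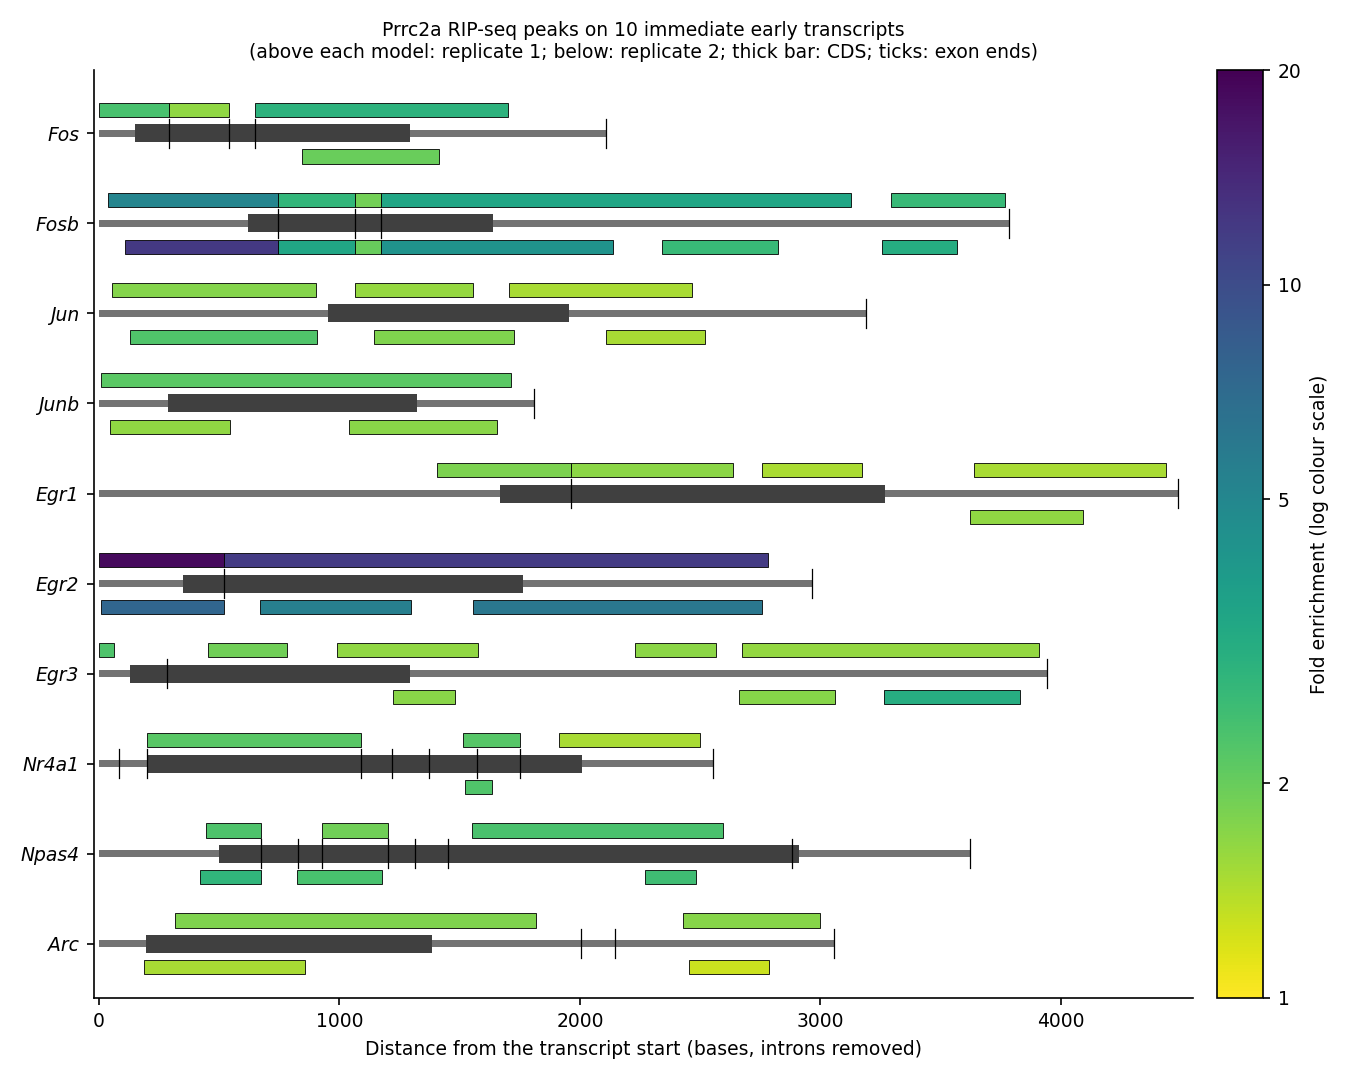
Peaks on the transcript with the longest CDS of each gene, with introns removed. The x axis gives the distance from the transcript start in bases, boxes above each model are replicate 1 peaks and boxes below are replicate 2 peaks, and the colour gives the fold enrichment on a log scale. *Egr2* and *Fosb* carry dark boxes at their 5′ ends, and *Egr2* has a further one downstream in replicate 1. *Egr1*, *Egr3*, *Fos* and *Nr4a1* have replicate 1 peaks with no box below.

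The rule for sharing mattered for some of the genes. When each peak had to cover at least 50% of the other, 6 of 10 genes kept a shared peak, against 9.50% of all protein-coding genes, and the 4 without one were *Fos*, *Junb*, *Egr3* and *Nr4a1*. In these 4 genes the replicate 2 peak covered between 29.2% and 48.5% of the replicate 1 peak it overlapped. Of 26 overlapping pairs of peaks over the 10 genes, the replicate 2 peak lay wholly inside the replicate 1 peak in 13. When both peaks had to be at least 4-fold enriched, 2 of 10 genes kept a shared peak, *Egr2* and *Fosb*, against 1.59% of all protein-coding genes.

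The enrichment of most of these peaks was low. The median was 1.92-fold over the 31 peaks of replicate 1 and 2.27-fold over the 25 peaks of replicate 2, against 2.35 and 2.50 over all peaks in protein-coding exons. The whole lists also hold peaks outside protein-coding exons, and their medians (2.84 in replicate 1 and 2.63 in replicate 2) were above these exonic medians. Under the whole-list medians lay 26 of 31 peaks in replicate 1 and 15 of 25 in replicate 2. The share of all exonic peaks under them was not computed. Over the 21 shared peaks, the median of the mean of both replicates was 2.24-fold, against 2.60-fold over all 7317 shared peaks in protein-coding exons. The peaks were wide, with medians of 586 bp in replicate 1 and 516 bp in replicate 2 against 414 and 398 bp over protein-coding exons.

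Ordered by the mean of their most enriched shared peak, *Egr2* (13.0 ± 7.72, SD, n = 2) and *Fosb* (8.62 ± 4.99) came first. *Npas4* (2.56 ± 0.372), *Fos* (2.44 ± 0.663), *Egr3* (2.36 ± 1.04), *Nr4a1* (2.24 ± 0.0467), *Jun* (2.01 ± 0.381), *Junb* (1.93 ± 0.326), *Arc* (1.63 ± 0.207) and *Egr1* (1.56 ± 0.106) followed. The values of *Egr2* and *Fosb* overlapped each other, and both replicates of both genes stood above every value of the other 8. Within those 8, the values of each gene overlapped those of its neighbours in this order, so that neighbours do not differ beyond the spread between replicates. Genes further apart could: both values of *Npas4*, of *Fos* and of *Nr4a1* were above both values of *Arc* and of *Egr1*. Over the 2629 genes with a shared peak the median of the same quantity was 2.86, and 8 of the 10 genes lay below it. *Egr2* had a higher mean than 99.5% of these genes, with 13 genes above it, and *Fosb* than 98.3%, with 44 above it, whereas *Arc* and *Egr1* were higher than 2.36% and 1.03%.

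**Figure D2:**
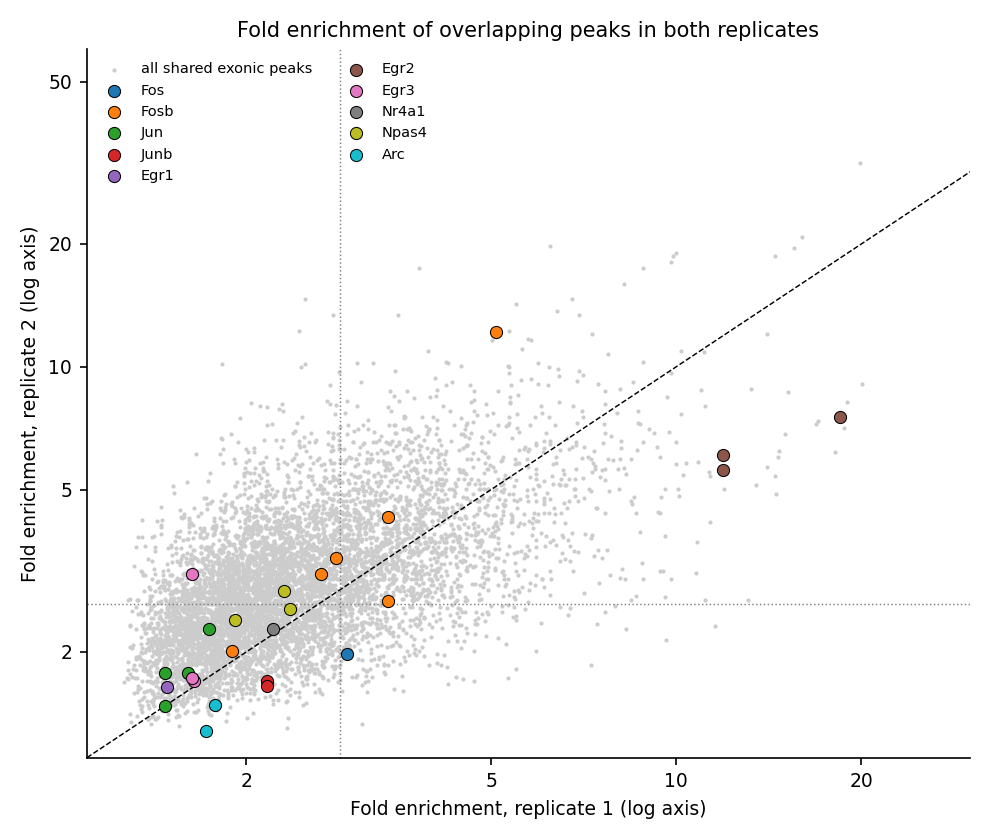
Fold enrichment in replicate 1 (x axis) and replicate 2 (y axis), both on log axes. Each coloured point is an overlapping pair of peaks in 1 of the 10 genes, grey points are all 7317 shared peaks in protein-coding exons with their most enriched partner, the dashed line marks equal values and the dotted lines the medians of the whole lists. The *Egr2* pairs lie to the right of the line and the most enriched *Fosb* pair to the left, at 5.09 in replicate 1 and 12.2 in replicate 2, and most other pairs lie in the lower left.

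The replicates did not give the same value for the most enriched genes. *Egr2* reached 18.5-fold in replicate 1 and 7.53-fold in replicate 2, and *Fosb* reached 5.09-fold and 12.2-fold, so that each led in a different library. On the log2 scale the difference of replicate 1 minus replicate 2 was 1.29 for that *Egr2* peak and -1.26 for that *Fosb* peak, which are the extremes among the 21 shared peaks. Over all 8372 shared peaks of the lists the median of this difference was -0.27 with an SD of 0.53, and over the 21 peaks of the 10 genes it was -0.14 with an SD of 0.57. Spearman's rho of the most enriched peak between the replicates was 0.527 over the 10 genes, which is a description across genes of the same libraries.

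Of the Fos subunits of AP-1, *Fos* had 73.3% and *Fosb* 66.0% of its exonic bases in peaks of replicate 1, and 24.1% and 54.3% in peaks of replicate 2. In *Fos*, 3 peaks of replicate 1 were 2.39-fold, 1.65-fold and 2.91-fold enriched from the 5′ to the 3′ end, and the single peak of replicate 2 was 1.97-fold enriched. Only the last of the 3 was shared, and it held the stop codon in both libraries. Its replicate 1 boundaries were chr12:85475699-85476866 and its replicate 2 boundaries chr12:85476012-85476578, so that the shared bases ran from codon 233 into the 3′ UTR. In replicate 1, 90.6% of the CDS and 100% of the 5′ UTR were inside peaks, and in replicate 2, 39.1% and 0%.

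*Fosb*, whose splice variant deltaFosB accumulates after repeated stimulation, had the most peaks in replicate 2 and, with *Egr3*, in replicate 1. It had 5 peaks in replicate 1 and 6 in replicate 2, and all of them were shared. From the 5′ end, the replicate 1 values were 5.09, 2.79, 1.89, 3.39 and 2.64, and the replicate 2 values were 12.2, 3.40, 2.01, 4.28, 2.66 and 3.11. In both libraries the first peak was the highest and the third peak, over the short exon of codons 150 to 185 and bases next to it, was the lowest. The first peak lay at chr7:19309165-19310014 in replicate 1 and chr7:19309167-19309943 in replicate 2 and ran from the 5′ UTR over the start codon to codon 42, where the coding part of the first exon ends. The next peaks began at codon 43, codon 150 and codon 186 once introns were removed, so that 100% of the CDS was inside peaks of each replicate, the only gene of the 10 for which this held in both. Peaks of replicate 1 held 91.6% of the 3′ UTR and those of replicate 2 held 60.2%.

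The Jun subunits are encoded by genes without introns in the transcripts used here. *Jun* had 3 shared peaks in each replicate, with 1.74, 1.61 and 1.47 in replicate 1 and 2.27, 1.77 and 1.48 in replicate 2 from the 5′ to the 3′ end. Enrichment was thus highest in the 5′ UTR peak of both libraries. That peak, chr4:95051319-95052167 in replicate 1, also overlapped an exon of *Junos* on the opposite strand in both replicates, and without strand in the files the reads of the 2 genes cannot be told apart. The second peak lay inside the CDS, and the third held the stop codon in replicate 1 but not in replicate 2. *Junb* had a single peak of 1703 bp in replicate 1 (2.16-fold), which contained the whole CDS, and 2 peaks inside it in replicate 2, 1.65-fold over the start codon and 1.70-fold over the stop codon. The 2 replicate 2 peaks left a gap between codon 86 and codon 251.

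The 3 Egr genes held both the highest and the lowest mean of the group, although the values of *Egr1* overlapped those of *Arc*. In *Egr2* the first peak, chr10:67537694-67538471 in replicate 1 and chr10:67537877-67538488 in replicate 2, held the 5′ UTR and codons 1 to 57 and was 18.5-fold and 7.53-fold enriched. The second peak of replicate 1, chr10:67539633-67542006, was 2374 bp wide and 11.9-fold enriched, and replicate 2 had 2 peaks within it, at 5.57-fold over codons 107 to 315 and 6.07-fold from codon 402 through the stop codon. The least enriched of the 5 *Egr2* peaks was above 94.9% of its list and above every peak of the 8 genes that remain when *Fosb* is set aside. The parts of the CDS between codons 57 and 107 and between codons 315 and 402 were inside a peak in replicate 1 alone.

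The peaks of *Egr1* and *Egr3* were less enriched than those of *Egr2* in both replicates. *Egr1*, which is transcribed at a steady level in cortex and hippocampus as well as being induced, had 4 peaks in replicate 1 at 1.81, 1.68, 1.46 and 1.49 and 1 peak in replicate 2 at 1.64. The first 3 peaks of replicate 1 covered 86.5% of the CDS, including the start codon, while replicate 2 covered 0%. The single shared peak lay in the 3′ UTR. *Egr3* had 5 peaks in replicate 1 at 2.32, 1.92, 1.64, 1.68 and 1.63 and 3 in replicate 2 at 1.70, 1.72 and 3.10. The last of these, inside the long 3′ UTR, was higher than the replicate 2 peaks of *Npas4*, but the replicate 1 peak over the same bases was the lowest of its 5. Of the *Egr3* CDS, 54.1% lay in peaks of replicate 1 and 6.27% in peaks of replicate 2. The first replicate 1 peak of *Egr3* extended 153 bp upstream of the annotated gene.

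*Nr4a1* had the smallest shared stretch of the 10 genes. Its 3 replicate 1 peaks were 2.17-fold over the start codon and codons 1 to 295, 2.21-fold over codons 438 to 517 and 1.48-fold over the stop codon, and its single replicate 2 peak was 2.27-fold. That peak, chr15:101272869-101273075, was the narrowest of the 56 peaks at 207 bp, 113 of them exonic and 94 intronic. The shared exonic bases came to 3.22% of the exons of *Nr4a1*, and 0% of its 3′ UTR was covered in replicate 2 against 90.1% in replicate 1.

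In *Npas4* all 3 peaks of each replicate were shared, and each held coding bases. The replicate 1 values were 2.30, 1.92 and 2.36 and the replicate 2 values 2.83, 2.39 and 2.54, so that each of the 3 was higher in replicate 2. The first held the start codon in both libraries and reached codon 59. *Npas4* was the only gene of the 10 with 0% of the 3′ UTR inside a peak in either replicate, and its stop codon was not covered. In *Arc*, 2 shared peaks were found in each replicate, at 1.78 and 1.72 in replicate 1 and 1.48 and 1.28 in replicate 2. The upstream peak covered codons 41 to 397, with the stop codon, in replicate 1 and codons 1 to 221 in replicate 2. The downstream peak lay in the 3′ UTR, which holds the elements that carry *Arc* mRNA into dendrites, and 19.8% of that UTR was covered in both replicates. Both *Arc* peaks of replicate 2 were near the bottom of its list, where 2.43% and 0.0911% of the peaks had a lower value.

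The share of exonic bases inside peaks of both replicates had a median of 28.0% over the 10 genes, from 3.22% in *Nr4a1* to 68.9% in *Egr2*, against a median of 11.4% over the 2629 genes with a shared peak, and 8 of the 10 genes were above it. The exons of the 10 genes were shorter, with a median of 3453.5 bases against 6865, and the shares were not adjusted for length. In replicate 1 alone the median over the 10 genes was 65.9% and in replicate 2 it was 30.3%, so the libraries differed by more than 1.5 times. Pooled over the 10 genes, peaks of replicate 1 held 80.1% of CDS bases, 66.6% of 3′ UTR bases and 51.3% of 5′ UTR bases, and those of replicate 2 held 37.5%, 40.2% and 38.8%. The CDS was thus the most covered region in replicate 1 but not in replicate 2. Over all genes with a shared peak the CDS shares were 35.7% and 35.1%, the 3′ UTR shares 28.8% and 29.5% and the 5′ UTR shares 45.6% and 43.3%, and the libraries differed less than in the 10 genes.

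**Figure D3:**
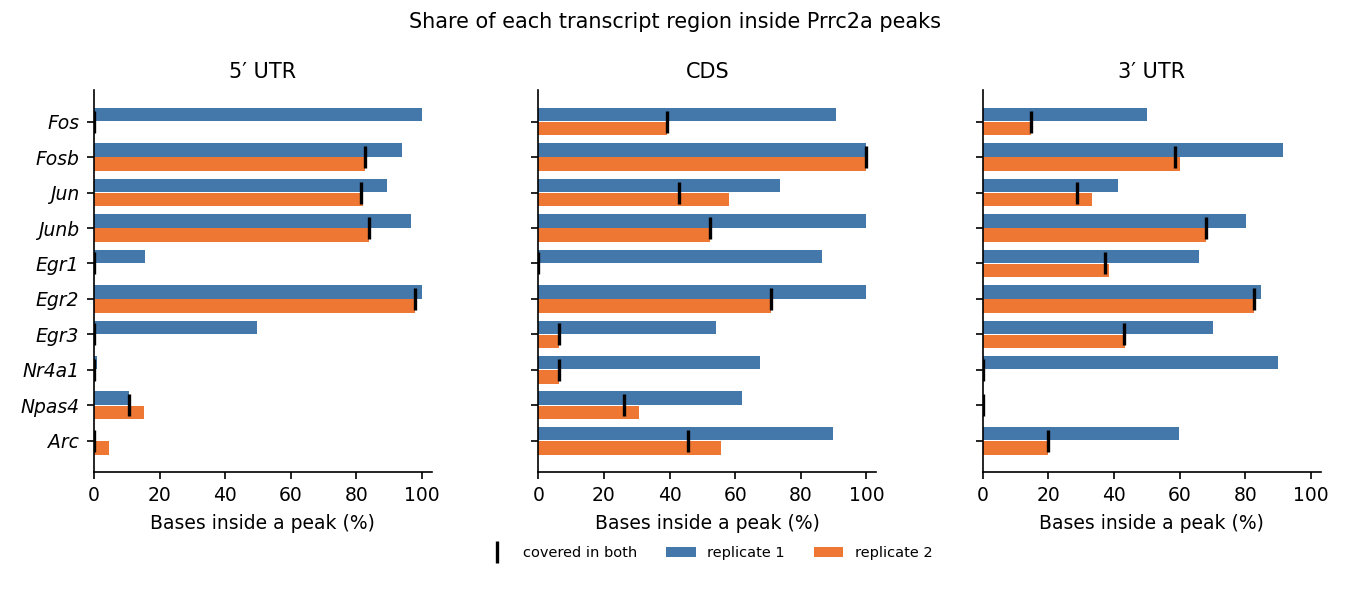
Share of the bases of the 5′ UTR, CDS and 3′ UTR of each gene that lay inside a peak (x axis, percent), for the transcript with the longest CDS. Bars are replicate 1 and replicate 2 and the black tick marks the bases covered in both. *Fosb* has its whole CDS covered in both replicates, *Egr1* has 86.5% of its CDS covered in replicate 1 and 0% in replicate 2, and *Npas4* has no covered base in the 3′ UTR.

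By the annotation at the midpoint of the replicate 1 peak, the 21 shared peaks fell to the CDS in 12 cases, to the 3′ UTR in 6 and to the 5′ UTR in 3. Over all shared peaks in protein-coding exons, the shares were 50.7% for the CDS, 30.4% for the 3′ UTR and 11.4% for the 5′ UTR. The 3 peaks with a midpoint in the 5′ UTR were the first peaks of *Fosb*, *Jun* and *Egr2*. The stop codon was inside 7 of the 21 and the start codon inside 4, against 11.4% each of all shared peaks, which were shorter, with a median of 376 exonic bases against 758. Introns, taken as bases outside the exons of all transcripts of a gene, made up 4.71% of the bases of replicate 1 peaks and 4.60% of replicate 2 peaks. Some of the bases counted as exonic are intronic in the transcript with the longest CDS. The third *Fosb* peak of replicate 1 was 322 bp wide with 0 intron bases, but held only positions 1068 to 1175 of that transcript. No peak lay within the span of a gene without touching an exon.

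The motif GGAC was counted in the exonic part of each peak, read on the strand of the gene, with overlapping copies allowed and GGACT as a subset of GGAC. It was present in 20 of the 21 shared peaks, read over the whole replicate 1 peak, against 77.9% of all 7317, and the exception was the third peak of *Fosb*. In the bases covered by both replicates alone, 15 of the 21 shared peaks held it. The share over all shared peaks was not computed for such bases. Since the 21 peaks were longer than all shared peaks, windows of equal length were read too. In windows of 101 bases around the middle of the stretch shared by both replicates, 6 of 20 windows (30%) held GGAC, against 36.8% of 6936 windows over all genes, so at equal length the share was not above that of other targets. GGACT was in 11 of the 21 peaks, against 43.0% of all shared peaks, and in 2 of 20 windows, against 11.5%.

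Pooled over the 10 genes, bases covered in both replicates held 4.25 GGAC per kb, bases in a peak of either replicate 4.74 per kb and bases in no peak 4.24 per kb. The GC content was 56.1% in bases covered in both and 55.3% in bases in no peak. Over all genes with a shared peak the densities were 4.80, 4.51 and 3.37 per kb, with GC contents of 53.6% in bases covered in both and 45.8% in bases in no peak. By gene, the density was higher in covered bases in 6 of 10: *Fos*, *Fosb*, *Jun*, *Junb*, *Egr2* and *Arc*. The difference was wide in *Junb*, with 7.19 per kb in covered bases and 1.67 per kb in bases in no peak. The second value rests on 1 copy in 598 bases. These counts use the exons of all transcripts, 2301 bases in *Junb*, of which the transcript with the longest CDS holds 1809. *Nr4a1*, with the highest density of all over its whole exons at 9.12 per kb, held 0 copies in its 113 shared exonic bases and 16 of the 57 copies that lay in no peak. Which of these copies are methylated is not measured in these files.

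ATTTA, the core of the AU-rich elements that shorten the life of many immediate early mRNAs, was searched for in the 3′ UTR of the transcript with the longest CDS. It was present in 9 of 10 genes, all but *Arc*, with 27 copies in all, and in 58.1% of all protein-coding genes. Per kb of 3′ UTR there were 2.13 copies in the 10 genes and 1.93 in all protein-coding genes. Of the 27 copies, 14 lay in replicate 1 peaks and 9 in peaks of both replicates, 5 of them in *Egr3*, 3 in *Egr2* and 1 in *Junb*. All 4 copies in *Fos* and all 4 in *Jun* lay outside the peaks of either replicate. Per kb of 3′ UTR covered in both replicates the density was 1.81, so the covered parts were not richer in ATTTA than the whole.

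Other genes of the activity response were read in the same way. Of 36 further activity-induced genes, 14 had a shared exonic peak, 17 had a peak in replicate 1 and 19 in replicate 2. Over all protein-coding genes the shares were 12.0%, 16.5% and 21.1%, in the same order. Of the 13 other induced transcription factors and nuclear proteins, 5 had a shared peak: *Nr4a3* (5.54-fold in replicate 1 and 4.07-fold in replicate 2), *Nr4a2* (5.11 and 4.08), *Fosl2* (4.21 and 4.89), *Ier2* and *Egr4*. *Nr4a2* and *Nr4a3*, the other orphan receptors of the family, thus exceeded *Nr4a1* in both libraries. Another 5, *Fosl1*, *Jund*, *Maff*, *Klf4* and *Btg2*, had no peak in either, and are named here after their values were seen.

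Of 14 signalling genes, 6 had a shared peak: the phosphatases *Dusp4* (1.99 and 4.15), *Dusp6* (2.48 and 1.80) and *Dusp1*, which remove phosphate from MAP kinases, the pseudokinase *Trib1* (2.78 and 2.85), *Gadd45b* and *Ier5*. Of 9 effectors, 3 had a shared peak: *Inhba*, a subunit of activin (4.76 and 5.93), the neurotrophin gene *Bdnf* (3.45 and 3.41) and the postsynaptic scaffold gene *Homer1* (1.98 and 3.75). The counts of both classes stand beside the 12.0% of all protein-coding genes that had a shared peak. In the induced genes with a shared peak the exons summed to a median of 3685 bases, and in those without to 2668.5 bases.

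Among 10 regulators upstream of these genes, 4 had a shared peak, beside 12.0% of all protein-coding genes. The acetyltransferase genes *Crebbp* (4.50 and 5.59) and *Ep300* (3.35 and 4.97) had 16 and 8 shared peaks on long transcripts. *Creb1* (1.98 and 1.88), which binds the cAMP response element, and *Mef2c* had 1 each. The values printed for *Ep300* came from a peak that touched an exon but was annotated to an intron. With replicate 2 alone 7 of the 10 regulators had an exonic peak and with replicate 1 alone 5. Over all protein-coding genes the shares were 21.1% in replicate 2 and 16.5% in replicate 1. The exons of the 10 regulators had a median of 12361 bases, against 3453.5 in the immediate early genes.

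**Figure D4:**
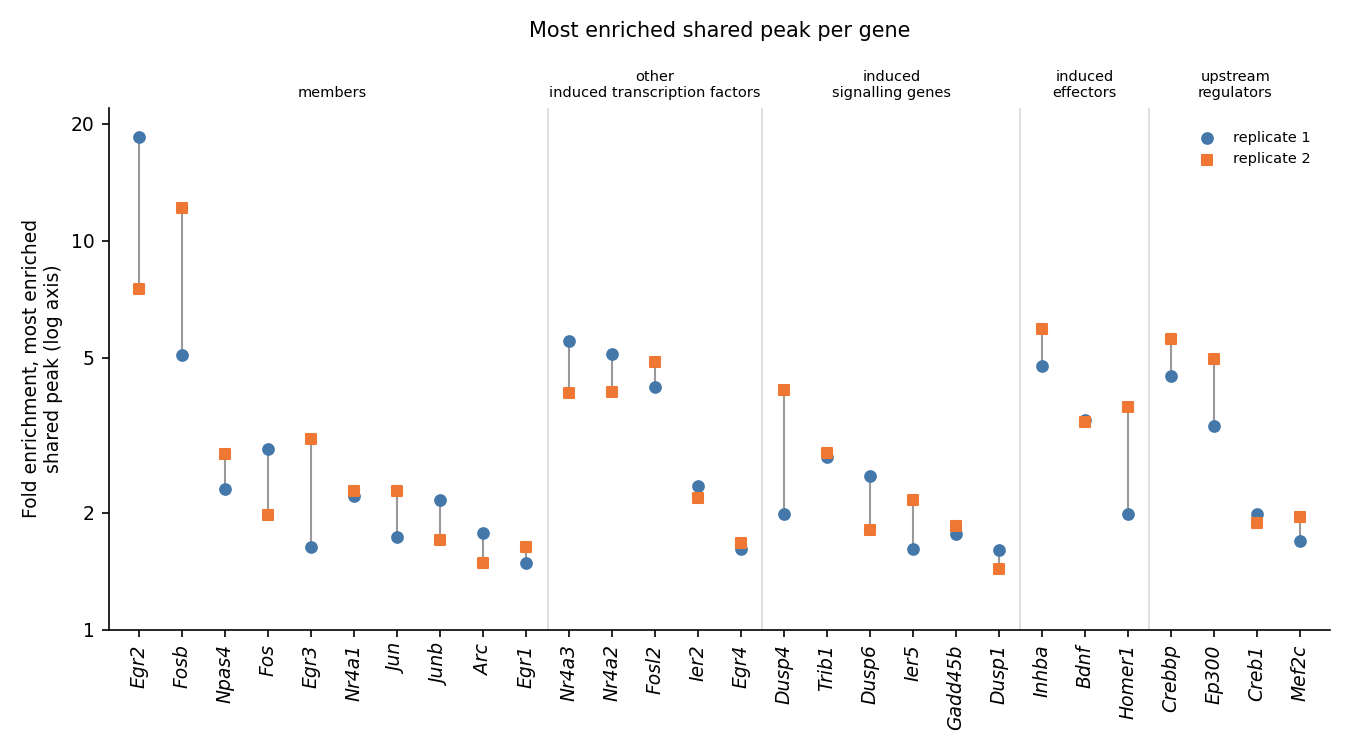
Fold enrichment of the most enriched shared peak (y axis, log scale) for the 10 immediate early genes (members), other activity-induced genes and upstream regulators that had a shared peak. Circles are replicate 1, squares are replicate 2 and the line joins the values of a gene. *Egr2* and *Fosb* stand highest by the mean of both replicates and have a wide gap between them. *Fosb* in replicate 1 (5.09) lies below *Nr4a3* (5.54) and *Nr4a2* (5.11). In both replicates *Nr4a3*, *Nr4a2*, *Fosl2*, *Inhba*, *Bdnf*, *Crebbp* and *Ep300* stand above the remaining 8 immediate early genes. The *Ep300* peak was annotated to an intron.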

How the data were processed

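Prrc2a RIP-seq peaks were analysed for both replicates, whose peaks were called separately. The deposited values are the position and the fold enrichment of each peak, a linear ratio that the authors obtained with MACS2 at an FDR below 0.05 from uniquely mapped reads (mapping quality of at least 20, mm10). The submitters' processing notes name TopHat2 2.0.9 and MACS2 2.0.10, and the methods name other versions. The control of the peak call is not given in the sources used here. No column of values was left out.

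From the lists, overlaps with GENCODE release M21 exons were computed in Python 3.11.15 with numpy 2.4.6, and sequences were read from GRCm38 with samtools 1.23.1 and pysam 0.24.0. Figures were drawn with matplotlib 3.10.9. Overlaps, regions and motif counts were tested on simulated data, in which 7 of 7 quantities were recovered exactly. With 1 condition and 2 replicates no test between groups was possible, and errors are the SD over the replicates.

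All 10 genes are named, and related genes with a shared peak, with values for the 3 most enriched per class. The genes and lists were chosen with earlier results of these data known, from general knowledge of the activity response. The older symbol of 1 listed gene was matched through RefSeq. The alternatives tried were a stricter overlap or enrichment, other transcript sets, the whole gene span, another assignment of peaks, another motif and each replicate alone.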

Additional observations from a re-analysis of the deposited data

How the results depend on the processing

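Of 51 alternative values for 8 results, 34 stayed within 1.5 times the reported count or within the SD between replicates (0.254 for the median fold enrichment, 25.2 percentage points for the covered share). Requiring 50% of both peaks to overlap left 6 genes with a shared peak, 13 shared peaks, 6 with a midpoint in CDS and 12 with GGAC, at a median fold enrichment of 2.56. Requiring 4-fold enrichment in both replicates left 2 genes, 3 shared peaks, 1 in CDS, 3 with GGAC, 4 induced genes and 1 upstream regulator, and the median rose to 8.99 by construction. GGACT in place of GGAC was found in 11 shared peaks, and GGAC in the bases covered by both replicates alone in 15. With the peaks of a single replicate, the number of the 10 genes stayed at 10. That outcome was fixed, since a gene with a shared peak has a peak in each replicate. The whole gene span could not lower a count either, and the 34 values that stayed include such outcomes. With a single replicate, peaks numbered 25 to 31, those in CDS 10 to 19 and those with GGAC 19 to 28. The median fold enrichment was 1.92 to 2.27 and the covered share 30.3% to 65.9%. Induced genes numbered 17 to 19 and upstream regulators 5 to 7. The lists give no reads, so what depth limits cannot be computed.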
